A study of Arabidopsis thaliana with 2 samples.

Results

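Of the 25224 genes in the deposited tables, 8 nuclear genes of the light-harvesting antenna were followed from mRNA to ribosome footprints on membrane-bound polysomes (MBPs). The rule that picked them names loci and uses no measured value: the rows whose locus was AT5G54270 (LHCB3), AT5G01530 (LHCB4.1), AT3G08940 (LHCB4.2), AT2G40100 (LHCB4.3), AT4G10340 (LHCB5), AT1G15820 (LHCB6), AT1G76570 (LHCB7) or AT1G44575 (PSBS). They took up 11 isoform rows of the exon table. Both groups came from the WT genotype, Arabidopsis thaliana seedlings of 13 days kept on half-strength MS medium in long days, with no mutation or treatment named. MBPs are the polysomes recovered with the microsomal membranes. One MBP ribo-seq library (38438723 reads) held the fragments that ribosomes shielded from RNase I, and one MBP mRNA-seq library (66958223 reads) held the mRNA of the same fraction. With 1 library per assay no difference has a replicate check and none was tested, and the intervals below cover counting error only.

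Plants collect light with chlorophyll-binding proteins that are made in the cytosol, imported into the chloroplast and inserted into the thylakoid membrane. Around photosystem II, trimers of the major complex LHCII connect to the core through monomeric proteins, the minor antenna: CP29 (encoded by the LHCB4 genes), CP26 (LHCB5) and CP24 (LHCB6). When light exceeds what photosynthesis can use, the thylakoid lumen acidifies, PSBS senses the acidification, and absorbed energy is released as heat, a process named non-photochemical quenching. LHCB3 is known as a subunit of LHCII trimers that lie next to CP24 and CP29, so the label of a minor, monomeric antenna does not describe it strictly. LHCB7 is a less studied relative of the same family. As these proteins are destined for the plastid, their mRNAs are not those of the secretory pathway, although MBPs are isolated with the endomembranes.

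Sequences of the members are shown first for the CP29 genes, since reads of these close copies had to be told apart for any of their values to hold. LHCB4.1 and LHCB4.2 encode proteins of 290 and 287 residues that were identical at 89.5% of aligned positions, and LHCB4.1 and LHCB4.3 (276 residues) at 72.8%. In the coding sequences the longest run shared by LHCB4.1 and LHCB4.2 was 23 bases, and LHCB4.1 and LHCB4.3 shared 21 bases at most. Stretches of 30 bases were compared where they begin at a codon of LHCB4.1 and align without gaps in all 3 genes. They were ranked by the differences between LHCB4.1 and LHCB4.2, with LHCB4.3 used for ties only. The stretch with the fewest is at chr5:209935-209964, chr3:2718357-2718386 and chr2:16746927-16746956 in TAIR10.1 (RefSeq, all on the plus strand), with capitals where a gene differs from LHCB4.1.
LHCB4.1: tcgacattgatatggatcgaggtgttagtg
LHCB4.2: tcgacattgatatggatcgaAgtgttagtg
LHCB4.3: AcgacGttgatatggatAgaAgtgttagtg
Here LHCB4.2 differed from LHCB4.1 at 1 base and LHCB4.3 at 4 bases. The stretch with the most differences between LHCB4.1 and LHCB4.2 lies near the 5′ end of the coding sequence, at chr5:209144-209173, chr3:2717774-2717803 and chr2:16745935-16745964, with capitals as before.
LHCB4.1: cccggtatccatcccggttcaggtcggttc
LHCB4.2: TccgACatTAGCTccAAttcaAgCcggttc
LHCB4.3: cAAgAtCCTAGAccTggAAcCggtAggGtc
In this stretch LHCB4.2 differed at 12 bases and LHCB4.3 at 15. A window of 28 bases, a length within the range recovered for footprints, occurred in no other coding sequence for 7 of the 8 members. The exception was LHCB3, where 10 of 771 windows (1.3%) also occurred in LHCB1 genes, and no window of 50 bases was shared by any member. With up to 2 mismatches allowed, a criterion added after seeing the data, windows near another light-harvesting gene made up 8.17% of LHCB3, 8.39% of LHCB4.1, 8.96% of LHCB4.2 and 3.11% of LHCB4.3, against 0 for LHCB5, LHCB6, LHCB7 and PSBS. In contrast, 41.7% to 54.6% of the 28-base windows of the LHCB1 genes were shared exactly.

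All 8 members were read in both libraries, and their levels spread widely. Levels between genes are given as RPM, the reads of a gene scaled by the reads of its library, in the exon table, which behaved as coding sequence, divided by the coding length in kb. LHCB5, which encodes CP26, had the highest footprint level, 1072 RPM per kb, from 903.5 RPM and 34730 reads over 843 coding bases (chr4:6408007-6409849). Its mRNA level was 1802 RPM per kb, from 1519 RPM and 101703 reads. PSBS (chr1:16870221-16873427), the sensor of lumen acidification, reached 948 RPM per kb in ribo-seq, from 756.9 RPM and 29093 reads. In mRNA-seq it reached 1460 RPM per kb, from 1165 RPM and 77990 reads. LHCB5 and PSBS thus stood above LHCB4.1 in footprints while LHCB4.1 stood above both in mRNA.

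LHCB4.1 (chr5:208866-210548) was the main CP29 gene, with 880 RPM per kb in ribo-seq (768.3 RPM, 29532 reads) and 1982 RPM per kb in mRNA-seq (1730 RPM, 115830 reads). LHCB6 (chr1:5446462-5447880), the gene of CP24, had 309 RPM per kb in ribo-seq (240.4 RPM, 9241 reads) and 653 RPM per kb in mRNA-seq (507.3 RPM, 33971 reads). LHCB4.2 (chr3:2717557-2718923) followed with 187 RPM per kb of footprints (161.5 RPM, 6207 reads) and 366 RPM per kb of mRNA (315.8 RPM, 21146 reads). These 3 genes kept the same order in both libraries.

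In deposited RPM, LHCB4.3 (chr2:16745628-16747424) was the member whose footprint level was above its mRNA level. This depends on the scale: with each library scaled to its summed nuclear exon RPM, PSBS too was higher in footprints than in mRNA. LHCB4.3 had 156 RPM per kb in ribo-seq (130.1 RPM, 4999 reads) and 146 RPM per kb in mRNA-seq (121.5 RPM, 8138 reads). LHCB3 (chr5:22038165-22039568) had nearly as much mRNA, 122 RPM per kb (97.3 RPM, 6512 reads), but 39.0 RPM per kb of footprints (31.1 RPM, 1195 reads). The mRNA level of LHCB4.3 was thus 1.2 times that of LHCB3 (counting interval 1.16 to 1.24) and its footprint level 4.02 times (3.77 to 4.28). LHCB7 (chr1:28728998-28730851) was the lowest member, with 6.64 RPM per kb in ribo-seq (6.53 RPM, 251 reads) and 22.1 RPM per kb in mRNA-seq (21.8 RPM, 1459 reads).

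**Figure D1:**
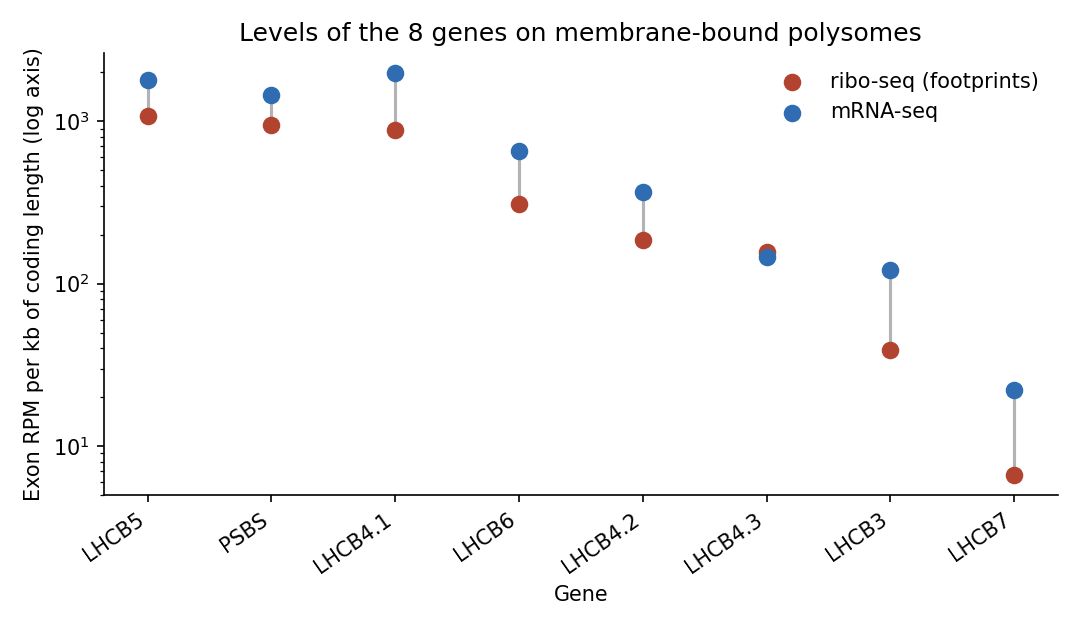
Exon RPM per kb of coding length (log axis) of the 8 genes in the ribo-seq and the mRNA-seq library, 1 point per library joined by a grey line, ordered by the ribo-seq level. On this RPM scale the mRNA point is above the footprint point in 7 genes, and the gap is widest for LHCB3 and LHCB7, while for LHCB4.3 the points nearly coincide at 156 and 146 RPM per kb.

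Between the ends of this order the footprint level per kb changed 162-fold, from LHCB7 to LHCB5, and the mRNA level 89.5-fold, from LHCB7 to LHCB4.1. In ribo-seq the closest neighbours were PSBS and LHCB4.1, at a fold of 1.08 (1.06 to 1.095), and in mRNA-seq LHCB4.1 and LHCB5, at 1.1 (1.09 to 1.11). Every pair of neighbours in either order differed beyond the counting interval, which is narrow at these depths and takes no account of the spread between plants or preparations. Levels were also ranked among the 16809 genes with a coding length and a mean exon RPM of at least 1 over both libraries. The footprint level per kb of LHCB5, PSBS and LHCB4.1 was above that of 99.7%, 99.6% and 99.6% of these genes. The LHCB3 level was above 87.1% and the LHCB7 level above 54.5%. Together the 8 members held 2998 RPM of footprints and 5477 RPM of mRNA, which was 0.597% and 0.654% of the exon values of all genes, 1 isoform each.

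To compare footprints with mRNA, the ratio was computed as log2 of ribo-seq exon RPM plus 1 over mRNA-seq exon RPM plus 1. It was taken for 16879 genes, those whose exon RPM averaged 1 or more over both libraries, and all 8 members passed this filter. Its median over all genes was −0.99 (quartiles −1.53 and −0.52), and the members had a median of −1.02. The features of all genes took in 20155237 reads of the ribo-seq library and 66870042 of the mRNA-seq library, so ratios are read against this median and not against 0. Of the 8 members, 4 were above the median of all genes. LHCB4.3, 1 of 8, was more than 2-fold above it, against 5.59% of all genes, and 0 of 8 were more than 2-fold below it, against 11.8% of all genes. The members' median thus lay close to that of all genes in this setting, but the position of the group depended on the processing: without the filter 1 of 8 was above the median of all genes (difference of medians −0.43), with a pseudocount of 5 it was 2 of 8 (−0.35), and against genes of like coding length 3 of 8 (−0.23). Single members spread over 1.71 on the log2 scale.

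Among PSBS and the genes of CP26 and CP24, PSBS had a ratio of −0.62 (counting interval −0.64 to −0.60), 1.29-fold above the median and higher than in 69.8% of genes. LHCB5 had a ratio of −0.75 (−0.77 to −0.73), 1.18-fold above the median. Both fell below the median when genes of any level were included, at −0.03 and −0.16 from it, and LHCB5 also with a pseudocount of 5, at −0.10. LHCB6 had a ratio of −1.07 (−1.11 to −1.04), which lay 0.09 below the median and changed side after scaling to summed nuclear exon RPM (0.03 above) and with a pseudocount of 0.1 (0.07 above). On which side of the median LHCB6 lay thus depended on the scaling.

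The 3 CP29 genes differed from each other in the ratio. LHCB4.1 had −1.17 (−1.19 to −1.15), LHCB4.2 −0.96 (−1.004 to −0.923) and LHCB4.3 0.10 (0.05 to 0.15). LHCB4.3 was thus above LHCB4.1 by 1.27 (1.21 to 1.32) and above LHCB4.2 by 1.06 (0.995 to 1.125) on the log2 scale, while LHCB4.2 was above LHCB4.1 by 0.21 (0.16 to 0.25). LHCB4.2 lay 0.03 above the median of all genes, but below it with a pseudocount of 5 (−0.30), without a filter on low genes (−0.37) and against genes of like coding length (−0.13). A ratio above 0 was found for 5.80% of all genes, and the LHCB4.3 value was higher than in 96.0% of genes. LHCB4.3 was 2.12-fold above the median, close to the 2-fold limit. The call ended with a pseudocount of 5 (0.74 above on the log2 scale), without a filter on low genes (0.69) and against genes of like coding length (0.93). Fewer genes were called in these settings, 0.995%, 1.18% and 3.29%, against 5.59% with a pseudocount of 1 and the filter. LHCB4.3 was higher than 96.4% of genes of like coding length. It remained the highest of the 8 members in each of the 10 alternatives.

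Taken as shares of the CP29 reads, the difference was as follows. In ribo-seq LHCB4.1 held 72.5% of the 40738 reads of the 3 genes (Wilson interval 72.1 to 72.9), LHCB4.2 15.2% (14.9 to 15.6) and LHCB4.3 12.3% (11.96 to 12.59). In mRNA-seq LHCB4.1 held 79.8% of 145114 reads (79.6 to 80.0), LHCB4.2 14.6% (14.4 to 14.8) and LHCB4.3 5.61% (5.49 to 5.73). Most footprints for CP29 thus came from LHCB4.1, and the LHCB4.3 share was larger among footprints than among mRNA.

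LHCB3 and LHCB7 had the lowest ratios of the 8 members, −1.61 (−1.70 to −1.53) and −1.60 (−1.79 to −1.40). Each had about 3 mRNA-seq RPM per ribo-seq RPM, 3.13 for LHCB3 and 3.34 for LHCB7, against 0.935 for LHCB4.3. The difference between LHCB7 and LHCB3, 0.02, was within its counting interval (−0.20 to 0.23), and their order changed with a pseudocount of 0.1 and after scaling to summed nuclear exon RPM. Both remained below the median in each of the 10 alternatives. They passed the 2-fold limit when genes of any level were included, at −1.02 and −1.01 from the median. In that setting 15.4% of all genes were more than 2-fold below it. The part of the LHCB1-like windows in the LHCB3 values was not tested.

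**Figure D2:**
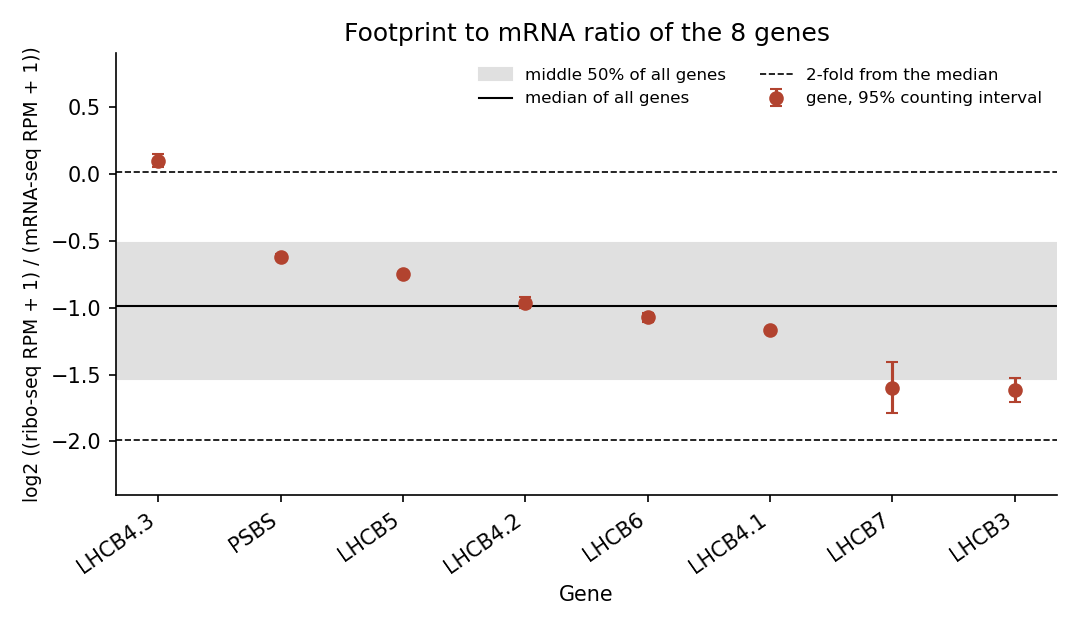
Footprint to mRNA ratio (log2, exon RPM plus 1 in each library) of each of the 8 genes, ordered from high to low, with counting intervals as bars. The grey band spans the quartiles of all genes (−1.53 to −0.52), the line is their median (−0.99) and the dashed lines are 2-fold from it. LHCB4.3 is above the upper dashed line, 5 genes are inside the band, and LHCB7 and LHCB3 lie just under it.

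The coding length of a gene moved with the ratio across the transcriptome. When the genes were divided by coding length into 4 classes of near equal size, the median ratio was −0.53 in the class of the shortest (78 to 783 bp), −0.84 in the next (786 to 1209 bp), −1.097 in the third and −1.47 in the longest. LHCB6 (777 bp) was in the first class and the other 7 members (798 to 984 bp) in the second. Against genes of their own class, 3 of the 8 members were above the median: LHCB4.3 (by 0.93), PSBS (by 0.22) and LHCB5 (by 0.09). LHCB4.2 lay 0.13 below, and LHCB6, next to the 783 bp limit, lay 0.54 below the median of the first class. The part of coding length in the members' ratios was not tested.

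**Figure D3:**
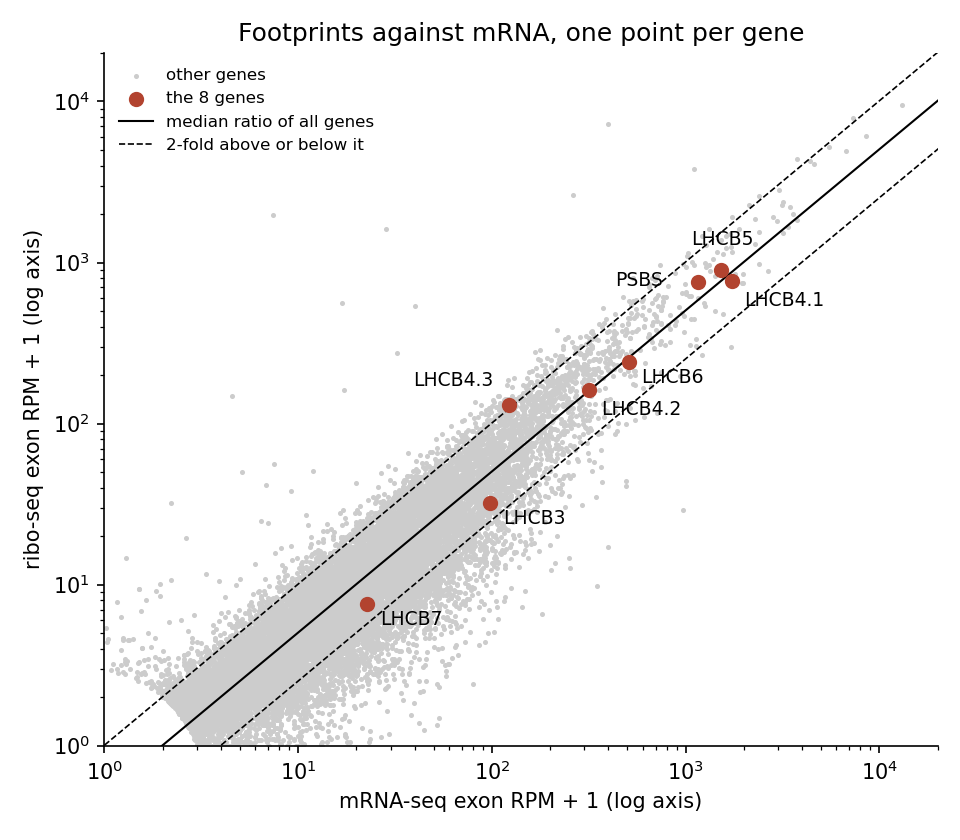
Ribo-seq against mRNA-seq exon RPM plus 1 (log axes) for the 16879 genes that passed the filter on low values, with the 8 genes in red. The solid line is the median ratio of all genes and the dashed lines are 2-fold above and below it. LHCB5, PSBS and LHCB4.1 sit at the upper end of both axes, LHCB4.3 lies above the upper dashed line, and the other members lie between the dashed lines.

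To see where on the transcript the reads fell, the values of the 5′UTR, the coding exons and the 3′UTR of each chosen isoform were compared. In ribo-seq 99.8% of the members' 115501 reads were coding (Wilson interval 99.8 to 99.8), 0.162% (0.140 to 0.187) were in the 5′UTR and 0.0571% (0.0449 to 0.0727) in the 3′UTR. In mRNA-seq 88.2% of 416031 reads were coding, 2.31% in the 5′UTR and 9.54% in the 3′UTR. The same mRNA-seq shares over all genes were 83.9%, 3.91% and 12.2%, so the members' UTR shares were lower in mRNA too. Over all genes 5′UTRs held 1.14% and 3′UTRs 3.11% of the footprint reads. These shares were 0.950% and 0.672% when 43 genes at the start of chromosome 1 were left out, within a stretch as long as the plastid genome (154478 bp). Among 14031 genes with both UTRs, the median gene had 0.625% of its footprint reads in the 5′UTR and 0% in the 3′UTR, with an upper quartile of 0.0574% for the 3′UTR. The members' pooled 3′UTR share of 0.0571% was thus close to the upper quartile of single genes, though below the pooled share of all genes.

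Per gene, the 5′UTR held 44 of the 9286 footprint reads of LHCB6 (0.474%, 0.353 to 0.635), the highest share among the members. PSBS had 69 of 29175 footprint reads in the 5′UTR (0.237%, 0.187 to 0.299) and LHCB4.1 had 42 of 29596 (0.142%, 0.105 to 0.192). LHCB4.3 had 7 of 5007 (0.140%, 0.0677 to 0.288). The lowest were LHCB4.2, with 3 of 6218 (0.0482%, 0.0164 to 0.142), and LHCB5, with 21 of 34771 (0.0604%, 0.0395 to 0.0923). The LHCB4.2 interval, from 3 reads, contains that of LHCB5 and overlaps those of LHCB4.1 and LHCB4.3, so its place is not settled. LHCB3, with 1 of 1197, had too few reads to be placed in this order (0.0147 to 0.472%). In mRNA-seq the 5′UTR share was 3.38% for LHCB5, 3.89% for LHCB6 and 3.70% for LHCB3, and between 1.03% (LHCB4.3) and 2.13% (LHCB4.2) for the others. LHCB5 thus had one of the higher 5′UTR shares in mRNA and one of the lower in footprints. The 5′UTR of LHCB7 was not analysed here.

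The 3′UTR of the chosen isoform held at most 22 footprint reads in any member, 22 of 29596 in LHCB4.1 (0.0743%), 20 of 34771 in LHCB5 and 13 of 29175 in PSBS. LHCB7 had 0 of 251, which allows a share of up to 1.195% (3 reads). In mRNA-seq the 3′UTR share ran from 4.64% (LHCB7) to 12.5% (LHCB4.2). Coding reads thus made up at least 99.5% of the footprints of every member. They made up 85.3% (LHCB4.2) to 92.2% (LHCB4.3) of the mRNA reads of the members other than LHCB7. For LHCB7 it was 95.4%, but the LHCB7 shares leave the 5′UTR out of the total.

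For 3 members, PSBS, LHCB4.2 and LHCB4.3, the tables had a second isoform row whose reading frame is shorter. In isoform 2 of PSBS a 466-base intron stays in the mRNA and the protein ends at 205 instead of 265 residues. The boundary is shown because the deposited 3′UTR value of isoform 2 depends on it. The unspliced stretch is chr1:16872466-16872495 and the spliced one joins bases between 16872466 and 16872961 on the plus strand, with intron bases in capitals.
PSBS unspliced: gtctcaaagaacaagGTATCTCTCAACATT
PSBS spliced: gtctcaaagaacaaggtccattgtttgggt
In isoform 1 of LHCB4.2 an 85-base intron is kept and the protein ends at 227 instead of 287 residues, at chr3:2718203-2718232 unspliced and between 2718203 and 2718317 spliced, plus strand.
LHCB4.2 unspliced: caagacgccggcaagGTATCGCCTCTTTTC
LHCB4.2 spliced: caagacgccggcaaggtagagctagtggat
In isoform 2 of LHCB4.3 another second coding exon is used and the protein has 185 instead of 276 residues. Its junctions lie between 16746382 and 16746887 (isoform 1) and between 16746382 and 16746515 (isoform 2) on chromosome 2, plus strand, with the second exon in capitals.
LHCB4.3 isoform 1: caagacgccggaaagGTGGAATTGGTGGAA
LHCB4.3 isoform 2: caagacgccggaaagGTGGAATCAAGCCAA

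For PSBS the 3′UTR row of isoform 2 held 241.7 RPM of footprints (9289 reads), against 0.338 RPM (13 reads) for isoform 1. That 3′UTR contains 248 bases which are coding in isoform 1. The exon value of isoform 1 exceeded that of isoform 2 by 240.1 RPM, close to the 241.3 RPM by which the 3′UTR values differed. For LHCB4.2 the 3′UTR of isoform 1 held 35.0 RPM of footprints (1346 reads), against 0.208 RPM (8 reads) for isoform 2, and it contains 265 bases that are coding in isoform 2. There the exon values differed by 39.3 RPM and the 3′UTR values by 34.8 RPM. For LHCB4.3, where the 3′UTR of isoform 2 holds 0 coding bases of isoform 1, this 3′UTR had 0 footprint reads and 7 mRNA reads. Footprints counted in a 3′UTR row of PSBS or LHCB4.2 therefore lay mostly where the other isoform is coding.

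**Figure D4:**
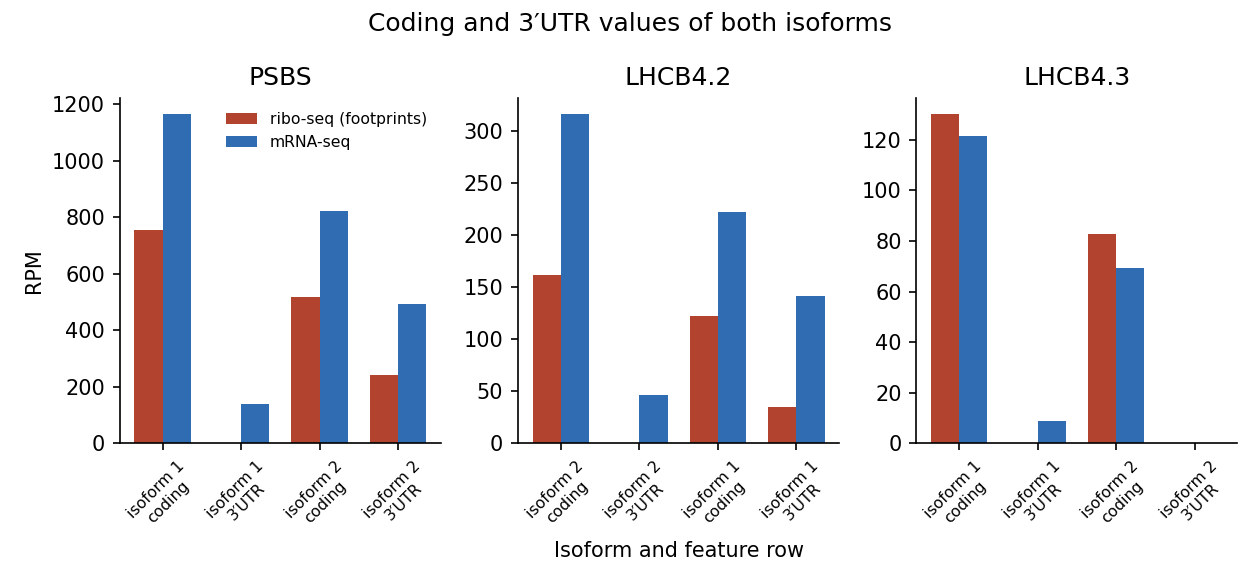
Coding and 3′UTR values in RPM (linear axes from 0, a separate scale per gene) of both isoforms of PSBS, LHCB4.2 and LHCB4.3 in ribo-seq and mRNA-seq. The 3′UTR bar of ribo-seq is visible for the intron-keeping isoforms, PSBS isoform 2 (241.7 RPM) and LHCB4.2 isoform 1 (35.0 RPM), and too low to see for the others.

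The 2 isoform rows also give the density of reads over shared coding bases and over bases coding only in the longer isoform. Reads across the boundary are counted on 1 side only. In LHCB4.2 the shared bases run past the kept 85-base intron to position 2718400. After that intron the 2 isoforms are read in different frames. The shared value is the whole exon value of the shorter isoform over the shared bases. It can thus hold reads of the coding bases that only this isoform has (68 in PSBS, 85 in LHCB4.2 and 45 in LHCB4.3). In PSBS the footprint density was 939 RPM per kb over the shared 550 coding bases and 968 RPM per kb over the last 248, and the mRNA density was 1496 and 1378 RPM per kb. In LHCB4.2 it was 204 RPM per kb over 599 bases and 148 RPM per kb over the last 265, and the mRNA density was 371 and 354 RPM per kb. In LHCB4.3 the footprint density was 162 and 148 RPM per kb and the mRNA density 135 and 164 RPM per kb. Footprints therefore reached the bases that are coding only in the longer isoform, at 0.727 (LHCB4.2) to 1.03 (PSBS) times the density of the shared bases. For mRNA the same figure ran from 0.921 (PSBS) to 1.21 (LHCB4.3).

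Genes of related function were compared through lists, each described by its counts and its median beside the median of all genes (−0.99). The 8 LHCB1 and LHCB2 genes, subunits of the LHCII trimer, had a median ratio of −2.12, with 3 above the median of all genes, 1 more than 2-fold above it (5.59% of all genes) and 5 more than 2-fold below it (11.8%). The 5 low genes were the LHCB1 genes and the 3 high ones the LHCB2 genes. Their lowest ratio was that of LHCB1.2 (−2.65, 35.4 RPM of footprints and 227.7 RPM of mRNA) and their highest that of LHCB2.3 (0.09, 8.25 and 7.71 RPM). The LHCB1 values and those of LHCB2.1 and LHCB2.2, with 58.4% and 57.7% of 28-base windows shared, are uncertain between copies. LHCB2.3 shared 2.07% exactly, but 30.7% of its windows were near another light-harvesting gene when up to 2 mismatches were allowed. The part of these windows in its low values was not tested. The 6 LHCA genes of the photosystem I antenna had a median of −1.03, with 3 above the median and 0 past the 2-fold limit, from LHCA4 (−1.60) to LHCA3 (−0.42). Of the antenna lists, the LHCA median was thus the one nearest to that of the 8 members.

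The 8 other proteins of the extended light-harvesting family, among them the early light-induced proteins, had a median of −0.21. Of these, 7 of 8 were above the median of all genes, from LIL3.2 (−1.46) to ELIP2 (0.76), and 2 of 8 more than 2-fold above it (5.59% of all genes). The 10 nuclear-encoded subunits of photosystem II, most of them small, had a median of −0.07. All 10 were above the median of all genes and 4 were more than 2-fold above it. They ran from PSBO1 (−0.63), of the oxygen-evolving complex, to PSBP1 (0.15). Their median coding length was 622.5 bp, against 837 bp for the members. Their lowest gene, PSBO1, was at the ratio of PSBS (−0.62), and LHCB4.3 (0.10) was the member that fell within the upper part of their range.

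The 14 genes of xanthophyll synthesis and of the regulation of quenching had a median of −0.92, with 7 above the median of all genes. They ran from BCH1 (−1.69), a beta-carotene hydroxylase, to PGRL1B (−0.25). Of the 14, 0 were more than 2-fold above (5.59% of all genes) and 0 more than 2-fold below (11.8%). The 4 kinases and phosphatases of the antenna and photosystem II had a median of −1.72, 0 above the median of all genes and 1 more than 2-fold below it. They ran from STN8 (−3.03, 14.9 RPM of footprints and 128.7 RPM of mRNA) to STN7 (−1.18). The 5 genes for targeting of light-harvesting proteins to the thylakoid had a median of −1.25, from the insertase gene ALB3 (−2.16) to LTD (−0.42). Of these 5, 2 were above the median of all genes and 1 was more than 2-fold below it. The last named lists had lower levels than the 8 members: the median footprint level was 38.9 RPM per kb for the quenching list, 25.7 RPM per kb for the kinases and phosphatases and 72.7 RPM per kb for the targeting list, against 248 RPM per kb for the 8 members.

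Of 11 chaperones of the endoplasmic reticulum, looked up as genes whose products enter the secretory pathway, 10 passed the filter. Their median ratio was −0.03. All 10 were above the median of all genes and 4 were more than 2-fold above it (5.59% of all genes). They ran from CRT3 (−0.98) to PDIL1-1 (0.42), with ribo-seq values of 23.2 to 195.9 RPM and a median coding length of 1560 bp. A lower ratio than the chaperone median was found for 7 of the 8 members, all but LHCB4.3 (0.10), and for 93.6% of all genes. A fraction of free polysomes was not analysed here, so neither list shows how much of an mRNA is bound to membranes, and the ratio is no check of the labelled fraction.

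**Figure D5:**
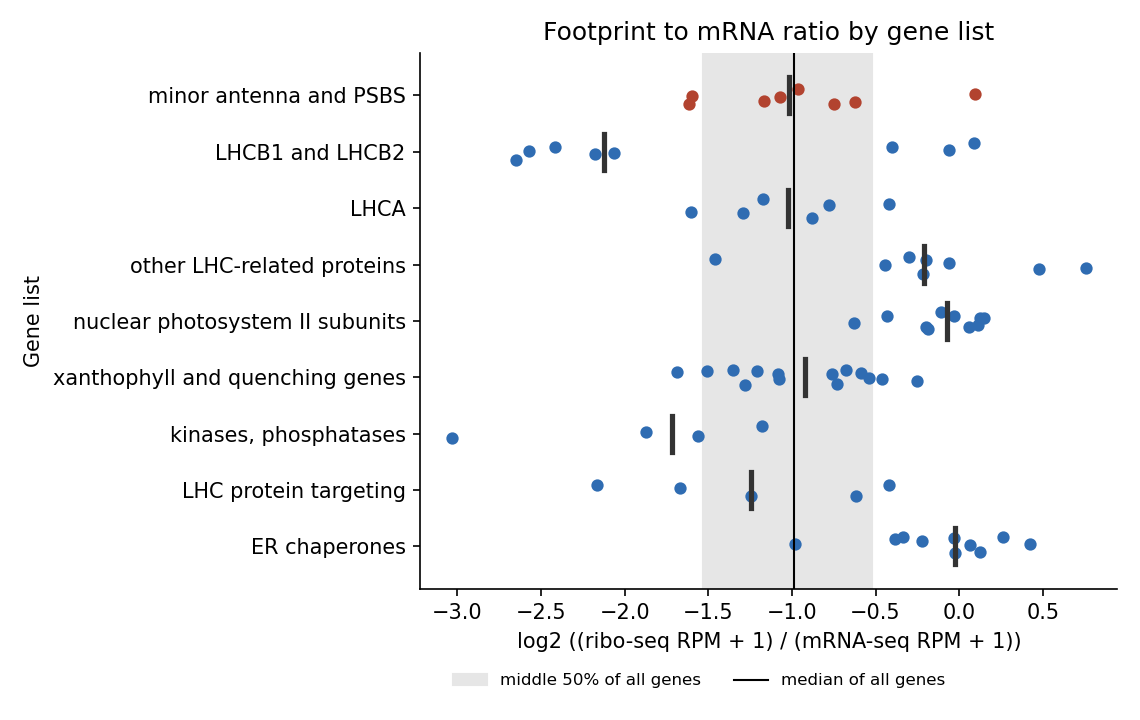
Footprint to mRNA ratio (log2, exon RPM plus 1 in each library) by gene list, 1 point per gene with points spread vertically for view and a bar at each list's median. The grey band spans the quartiles of all genes and the line is their median (−0.99). The 8 genes (red) straddle the line as the LHCA genes do, and the photosystem II subunits and ER chaperones lie to its right.

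By the distance between log2 exon values in both libraries, the genes most like LHCB4.3 were AT4G22240 (129.1 RPM of footprints and 121.6 RPM of mRNA) and NdhM (128.8 and 122.9 RPM), at 0.01 and 0.02. The nearest to PSBS were FNR1 (805.6 and 1150 RPM), a ferredoxin-NADP+ reductase, and the photosystem II subunit PSBX, at 0.09 and 0.22. LHCB5 was nearest to GOX2 (951.1 and 1525 RPM), a glycolate oxidase, and LOS1. LHCB4.1 was nearest to GAPA-2 (847.8 and 1795 RPM), a chloroplast glyceraldehyde-3-phosphate dehydrogenase, and AVP1. LHCB4.2 was nearest to FTSH1 and MTHFR1, LHCB6 to CWLP and CAT3, LHCB3 to MEE31 and CKL2, and LHCB7 to AT2G23950 and PDK1. Only 2 values, 1 per library, enter this distance.

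Some members overlap another gene, and since the use of strand in counting is not stated, reads in the overlaps cannot be told apart. LHCB6 overlaps the non-coding AT1G05207 on the other strand over 358 bp, of which 143 bp are coding in LHCB6, and AT1G15810 over 103 bp. LHCB3 overlaps AT5G54280 over 186 bp, 1 bp of it coding, and LHCB4.2 overlaps AT3G08943 over 44 bp outside its coding sequence. Across the neighbours with values, exon values were at most 15.0 RPM of footprints and 37.1 RPM of mRNA.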

How the data were processed

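Both libraries came from MBPs of WT seedlings. The authors aligned reads with TopHat 2.0 under default settings and assigned a read to a TAIR10 feature with bedtools 2.23.0 when most of it overlapped. For mRNA-seq in general the authors collapsed identical reads and left out reads with several map positions. Their account of the ribo-seq and MBP mRNA-seq tables names neither step, and the use of strand is not given in the sources used here. They describe polyA+ selection for RNA-seq of MBP RNA, without saying which library is the one deposited here. The deposited values are RPM per isoform for the 5′UTR, exons and 3′UTR. The mRNA-seq exon column, also named RPM by the authors, was treated as a signal because reads count for every isoform and the column sums to 1348201. All values above 0 that were low enough to tell (up to 2000 reads) were whole multiples of 1 step within 0.1 read, which gave the depths. A count of 0 allows up to 3 reads (0.0780 RPM of footprints, 0.0448 RPM of mRNA).

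For each gene the isoform row whose exon RPM had the highest mean over both libraries was used. The ratio used a pseudocount of 1, which understates differences of low genes, and a mean exon RPM of at least 1. Its counting interval used both read numbers, and shares have Wilson 95% intervals. PCR reads are not independent molecules. A gene was called when more than 2-fold from the median of all genes. Isoforms were matched to TAIR10.1 (RefSeq) for 32862 of 33114 rows. Sequences, lengths and identities came from that reference. Named genes were the members, the highest and lowest ratio of each list, and the 2 genes nearest to each member, plus those a count singles out. The members and lists were chosen with earlier results of these data known. Alternatives covered the pseudocount, filter, scaling, isoform, UTR values, coding length and part of chromosome 1. The step that computes the ratio was run on simulated reads. These had counting error only and the same ratio for all unchanged genes, so the run is no check of the calls. The tools were biopython 1.88, matplotlib 3.10.9, scipy 1.17.1, pandas 2.3.3 and numpy 2.4.6 under Python 3.11.15.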

Additional observations from a re-analysis of the deposited data

How the results depend on the processing

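The count of members above the median of all genes (4 of 8) became 5 with a pseudocount of 0.1 and after rescaling, 3 against genes of the same coding length class, 2 with a pseudocount of 5 and 1 without a filter on low genes. The count more than 2-fold above it (1) became 0 with a pseudocount of 5, without the filter and against genes of the same coding length class. In these settings 0.995%, 1.18% and 3.29% of genes were more than 2-fold above, against 5.59% before. The count more than 2-fold below it (0) became 2 of 8 without the filter, where 15.4% of all genes were more than 2-fold below. The members' median ratio (−1.02) moved to −0.28 after rescaling to summed nuclear exon RPM, where the median of all genes moved to −0.36, to −0.97 with the lowest-numbered isoform and to −1.24 with UTR values added. Its difference from all genes (−0.03) was 0.12 with a pseudocount of 0.1, −0.35 with 5, −0.43 without the filter, 0.080 after rescaling, 0.021 with the lowest-numbered isoform and −0.23 against genes of like length. Adding genes near 0 raises the median of all genes by construction. The cause of the other shifts was not tested. Relative to that median, LHCB4.3 ranged from 0.69 to 1.24 over the 10 alternatives, PSBS from −0.03 to 0.52 and LHCB3 from −1.02 to −0.50. With isoforms summed, the LHCB4.3 share of CP29 reads was 16.8% in ribo-seq and 7.76% in mRNA-seq. That sum counts reads of shared exons in each isoform row, and LHCB4.1 has no second row. It thus raises the shares of LHCB4.2 and LHCB4.3 by counting alone. Depth limits only LHCB7 (251 footprint reads) and the UTR shares of footprints. No paired analysis was possible because each assay had 1 library.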
